A study of Homo sapiens with 14 samples.

Results

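C-to-U sites that turn an arginine or glutamine codon into a stop codon were examined in RNA of 293FT cells given a cytosine base editor. They were chosen by their calls: a C-to-U change called in at least 1 hA3A-BE3 library and in none of the 11 other libraries, at a coding position of GENCODE release 29 (GRCh38) in the longest basic transcript of a protein-coding gene on the site's strand, where the change made a stop codon. There were 1073 such sites in 890 genes, among 10609 distinct C-to-U sites and 22358 distinct called sites of any kind. Since the calls in hA3A-BE3 and in the other libraries chose the sites, that contrast is given as a description and was not tested.

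The study asked whether the prime editor PE3 leaves changes that do not depend on its guide RNA. 293FT, a human embryonic kidney line carrying the SV40 large T antigen, was used in 14 libraries, 3 given hA3A-BE3, 3 Cas9, 3 EGFP, 3 non-transfected and 2 PE3. hA3A-BE3 joins a Cas9 nickase to human APOBEC3A, while in PE3 the nickase is fused to a reverse transcriptase. Every title names hRNF2, and the labels of all 14 libraries state a sort of the brightest 15% of cells 40 h after transfection, also those of non-transfected cells. The labels do not say that replicates were separate cultures, and the spread behind every p-value is that of the libraries alone, possibly a technical one. The files list called sites and hold no level of whole genes, so markers of the cell line could not be examined.

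APOBEC3A removes the amino group of cytosine, which leaves uracil, in single-stranded DNA and in RNA, with a liking for cytosines after U or T and for hairpin loops. Only a few codons can become a stop by this change: the arginine codon CGA becomes UGA, and the glutamine codons CAA and CAG become UAA and UAG. A ribosome that meets such a codon ends the protein there. When that happens well before the last exon junction of an mRNA, the surveillance pathway called nonsense-mediated decay can degrade the transcript, so the edited reads counted here come from the RNA that was present at harvest.

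The sequences around the sites with the highest mean levels among those called in all 3 hA3A-BE3 libraries are shown to let their letters be compared. Each is the spliced GENCODE transcript, 29 bases from 5′ to 3′ written with t for U, with the codon that becomes a stop in capitals and the edited base as its first capital. The arginine sites of highest mean level came first.
LMAN2L R287X: aggaaaagctccatCGAgatgtgttcttg
DHX38 R12X: atgcctcgatccatCGAttggaaggcact
ZNF14 R407X: tttcaagttcccttCGAgaacacgaaaca
ZDBF2 R1722X: agtcagcgctccatCGAagggctgataaa
ASCC2 R121X: agaagcgcctccatCGAagtgtttttctc
FBXL12 R64X: tgtggcacctccttCGAaggtacatggca
The glutamine sites of highest mean level among these share the letters cat before the codon, a histidine codon.
TPX2 Q177X: aaggcagtgctcatCAAgatactgctgaa
ZNF554 Q264X: tcttaaaccaccatCAGctgggatatgca
MASTL Q77X: aaaatatgactcatCAGgtccaagctgag
ALMS1 Q735X: tcgcagacagtcatCAAactgaagagact
MACF1 Q6378X: atgttttggctcatCAAgccacagtggaa
DDOST is a gene with an APOBEC3A target reported for other cells, matched here by gene and not by position. NCAPD2, MCM6 and ATP5F1B are shown for the paired letters on both sides of their loop.
DDOST R198X: atcccatcctctttCGAggtgttgggatg
NCAPD2 R537X: ccatcattctcactCGAgaagccacaggc
MCM6 R387X: aagggacctctcttCGAggggacataaat
ATP5F1B Q332X: ctgctgtgggctatCAGcctaccctggcc

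Stop-creating sites were called in every hA3A-BE3 library, at 224 in replicate 1, 509 in replicate 2 and 640 in replicate 3. Replicate 1 was the library with the fewest, although its 7.27 Gb of mapped bases lay between the 5.87 Gb of replicate 2 and the 8.87 Gb of replicate 3. Per Gb, as read from a constant ratio in the files, that was 30.8, 86.6 and 72.2 sites. C-to-U sites of every kind were likewise fewest in replicate 1, at 2499, 5113 and 6446 in replicates 1 to 3. The other 11 libraries held 13 stop-creating C-to-U sites in all, none of which was called in hA3A-BE3 or in more than 1 library. Of these, 8 were in control libraries, with 0 to 2 in each, and 5 in PE3, with 3 in replicate 2 and 2 in replicate 3. Sites called in hA3A-BE3 alone were 98.8% of the 1086 stop-creating C-to-U sites and 97.3% of all C-to-U sites, a contrast the choice of sites used.

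**Figure D1:**
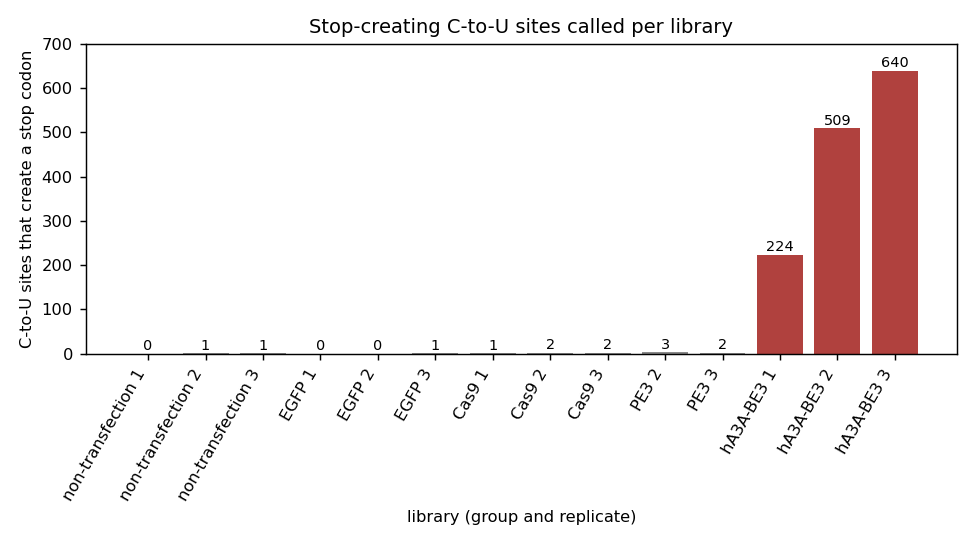
Number of C-to-U sites that create a stop codon (vertical axis) in each of 14 libraries (horizontal axis, group and replicate). The hA3A-BE3 libraries, in red, hold 224, 509 and 640, and the others, in grey, 0 to 3.

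Just inside the choice lay members near the lowest level in the lists. ATP2C1 Q382X was at 5.05% (exact 95% binomial interval 1.66 to 11.4) of 99 covering reads in replicate 1. COP1 Q510X and GGH Q299X were both at 5.06% (1.40 to 12.5) of 79 reads in replicate 3. Just outside were the 13 sites of other libraries. ELF4 Q573X had the highest level of these, 27.3% (6.02 to 61.0) of only 11 reads in Cas9 replicate 2, and GOLGA3 Q696X the lowest, 5.26% (1.10 to 14.6) of 57 reads in non-transfected replicate 2. The others named here are EIF2D Q549X, LARP4B Q19X, NOC3L Q396X, NCAPD2 Q249X and EDA2R Q71X in PE3 libraries, WNK1 Q2801X, MLXIP Q798X, FBN2 Q1182X and EMC2 R273X in Cas9 libraries, MINDY2 Q524X in a non-transfected library and PATZ1 Q416X in an EGFP library. Only 4 of the 13 followed a U and 1 was an arginine codon.

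Most members were seen once. Of the 1073, 852 (79.4%) were called in 1 hA3A-BE3 library, 142 (13.2%) in 2 and 79 (7.36%) in all 3. The share in all 3 was 10.2% over every hA3A-BE3-only C-to-U site, and over the coding ones 10%. By effect the share was 11.7% of 3589 synonymous and 8.77% of 2566 missense sites, and 10.8% of 1249 other sites at the first codon position. Replicates 2 and 3 shared 102 members that replicate 1 lacked, against 30 for replicates 1 and 3 and 10 for replicates 1 and 2. A call rested on a median of 4 mutated reads in replicates 1 and 2 and 5 in replicate 3, and on just 3 in 33.5%, 34.4% and 28.6% of them. Members were covered by medians of 49, 49 and 56 reads, so a site at a low level can pass the limits of the list in one library and miss them in another.

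Among coding C-to-U sites, stop codons were a modest share. They made up 12.4% of the coding C-to-U calls of replicate 1 (exact 95% binomial interval 10.9 to 14), 14.5% of replicate 2 (13.3 to 15.7) and 14.4% of replicate 3 (13.4 to 15.5). These intervals cover counting error only. Over the 3 libraries together 14.8% of the 7228 hA3A-BE3-only coding sites made a stop. In the 3658 genes with such a site, 38409 coding cytosines after U would make a stop if changed, 8.03% of all coding cytosines after U, while they held 14.9% of the called ones. Called sites numbered 26.1 per 1000 of these stop-making cytosines, against 17.1 per 1000 for synonymous and 9.70 per 1000 for missense ones. Every stop-making cytosine opens its codon, while the other classes hold other codon positions too, and this was not matched. First bases after U in codons that make no stop were called at 34.7 to 45.2 per 1000 for arginine CGC, CGG and CGU. For histidine CAC and CAU it was 10.2 and 22.0.

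At the 79 members called in all 3 libraries the mean level ran from 6.47% to 54.3%, with a median of 12.7%. The median over all 1057 hA3A-BE3-only C-to-U sites of all 3 libraries was 13.9%. A mean level of 20% or more was reached by 18 of the 79 (22.8%), against 27.4% of the 1057. Medians of the 79 were 10.5% in replicate 1, 15.7% in replicate 2 and 14% in replicate 3. Replicate 1 gave the lowest level at 54 of the 79 sites and replicate 2 the highest at 48. Across these sites the levels of 2 libraries went together with Pearson's r of 0.740 for replicates 1 and 2, 0.786 for 1 and 3, and 0.873 for 2 and 3. The sites are not independent replicates, and the libraries share the depth of each transcript.

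The highest mean level among the 79 was in LMAN2L, a lectin of the early secretory pathway. LMAN2L R287X (chromosome 2, position 96707759, minus strand, exon 7 of 8) was at 27.3%, 73.5% and 62.1% in replicates 1 to 3, a mean of 54.3% ± 24.1 (SD, n = 3), from 33 to 66 covering reads. Replicate 1 stood well below the other libraries, and the stop lies after 82.2% of the protein.

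DHX38, a helicase of the spliceosome, carried its stop at the very start of the protein. DHX38 R12X (chromosome 16, position 72096191, plus strand, exon 2 of 27) was at 33.3%, 58.8% and 55.6%, a mean of 49.2% ± 13.9 (SD, n = 3), from 17 to 42 reads. ZNF14, a zinc finger gene, carried R407X (chromosome 19, position 19712062, minus strand) at 31.6%, 63.2% and 46.2%, a mean of 47.0% ± 15.8 (SD, n = 3), from 19 to 26 reads. ZDBF2, an imprinted gene, carried R1722X (chromosome 2, position 206309692, plus strand) at 28.2%, 54.8% and 44.1%, a mean of 42.4% ± 13.4 (SD, n = 3). In each of these 3 sites, as in LMAN2L, replicate 1 was lowest and replicate 2 highest.

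At ASCC2 and FBXL12 the libraries lay closer together. ASCC2, a ubiquitin-binding subunit of the ASC-1 complex, carried R121X (chromosome 22, position 29825137, minus strand, exon 5 of 21) at 45.5%, 37.5% and 39.5%, a mean of 40.8% ± 4.13 (SD, n = 3). FBXL12, an F-box protein that selects substrates for a ubiquitin ligase, carried R64X (chromosome 19, position 9811687, minus strand) at 36.7%, 39.4% and 42.9%, a mean of 39.7% ± 3.07 (SD, n = 3). The FBXL12 change does not make a stop in every annotated coding transcript of the gene.

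The glutamine sites began lower. TPX2, which activates Aurora A kinase and builds the mitotic spindle, carried Q177X (chromosome 20, position 31771603, plus strand, exon 7 of 19) at 22.7%, 43.1% and 32.3%, a mean of 32.7% ± 10.2 (SD, n = 3), from 102 to 161 reads. MASTL, the Greatwall kinase of mitotic entry, carried Q77X at 14.9%, 37.8% and 28%, a mean of 26.9% ± 11.5 (SD, n = 3). Both mitotic genes were lowest in replicate 1 and highest in replicate 2.

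ZNF554 Q264X averaged 30.7% ± 11.1, ALMS1 Q735X, in a gene of the centrosome and cilium, 23.4% ± 4.2, and MACF1 Q6378X, in a linker of actin and microtubules, 23.2% ± 8.31 (SD, n = 3 for each). Covering reads were few, 15 to 20 at ZNF554, 15 to 32 at ALMS1 and 27 to 35 at MACF1. Among the remaining arginine sites of the highest 15, SUPT6H R380X, in a histone chaperone of transcription elongation, averaged 27.8% ± 8.10, and MTMR4 R535X, in a lipid phosphatase of the myotubularin family, 22.3% ± 13.6 (SD, n = 3 for each). ZNF587B R238X averaged 25.7% ± 9.58 (SD, n = 3), in a zinc finger gene with a close copy, so reads of the copy may be counted there. Of the highest 15, replicate 1 was lowest at 14 and replicate 2 highest at 12.

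**Figure D2:**
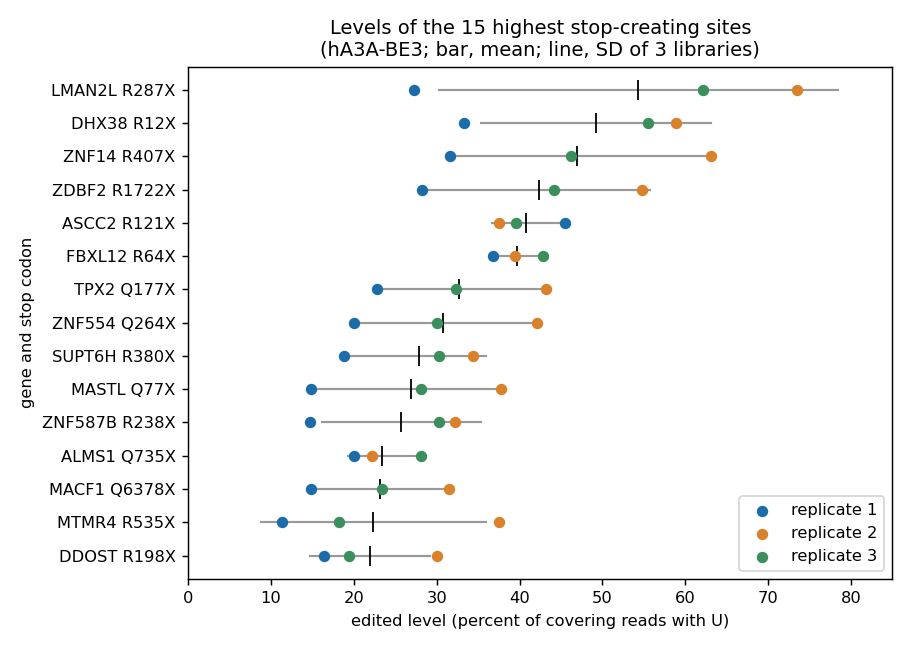
Edited level (horizontal axis, percent of covering reads with U) of the 15 members with the highest mean level among those called in all 3 hA3A-BE3 libraries (vertical axis). Points are replicates, the bar is the mean and the line the SD of 3 libraries. LMAN2L R287X spans 27.3% to 73.5%, while FBXL12 R64X spans 36.7% to 42.9%.

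Both genes listed as reported APOBEC3A targets carried a stop in every hA3A-BE3 library, at high coverage. They were matched by gene, and whether either stop is the reported edit was not examined. SDHB, the iron-sulfur subunit of succinate dehydrogenase, had R46X at 13.1% of 259 reads, 22.2% of 180 and 18.9% of 296. DDOST, a subunit of the oligosaccharyltransferase, had R198X (chromosome 1, position 20655450, minus strand, exon 5 of 11) at 16.3% of 300 reads, 30% of 213 and 19.4% of 314. In both genes replicate 1 was lowest and replicate 2 highest, in the order seen at most high sites.

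Some of the highest levels were not called in all 3 libraries. LRRCC1 Q952X, singled out after its values were seen, was at 61.5% of 26 reads in replicate 1 (exact 95% binomial interval 40.6 to 79.8) and 70.6% of 34 in replicate 3 (52.5 to 84.9), and was not listed in replicate 2. INTS5 R1016X, also singled out afterwards, was listed in replicate 2 alone, at 42.9% (17.7 to 71.1) of 14 reads. A site that is not listed was unedited, uncovered or under the limits of the list, so these gaps are not levels of 0.

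Among the stop-making codons, arginine CGA was called more readily than the glutamine codons and recurred more. CAG made up 457 (42.6%) of the 1073 members, CGA 326 (30.4%) and CAA 290 (27%). Of the 79 members in all 3 libraries, however, CGA made up 45 (57%), CAG 23 (29.1%) and CAA 11 (13.9%). In other words 13.8% of CGA members were called in all 3 libraries, against 5.03% of CAG and 3.79% of CAA members. Arginine codons that make no stop recurred as well. After U, 44 of 298 CGA sites were in all 3 libraries, beside 27 of 156 for CGC, 28 of 178 for CGG and 25 of 177 for CGU. For CAA it was 10 of 280 and for CAG 21 of 425, beside 29 of 237 for histidine CAU and 6 of 79 for CAC.

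Set against the codons available, CGA again came out highest, while CAA and CAG changed places. In the transcripts of the 3658 genes with a coding site, 49.8 of 1000 CGA codons after U were called (exact 95% binomial interval 44.4 to 55.6), 25.7 of 1000 CAA codons (22.8 to 28.8) and 19.8 of 1000 CAG codons (17.9 to 21.7). Arginine codons that do not become a stop were called at 45.2 per 1000 for CGU (38.9 to 52.2), 41.1 for CGC (35 to 47.9) and 34.7 for CGG (29.8 to 40.0). The intervals of CGU and CGC overlapped that of CGA, and that of CGG lay below it. All intervals here cover counting error over sites pooled from 3 libraries, not the spread between libraries, and the rates were not tested. Histidine codons were called at 22.0 per 1000 for CAU (19.3 to 24.9) and 10.2 for CAC (8.06 to 12.7). The codons thus fell into those with G and those with A after the edited base, and in each set the highest rate was that of a stop codon, with an interval that overlapped the next one. The genes were chosen for having a call. In the 1495 genes with a called site of any kind in the 11 other libraries the rates were lower, 30.6 for CGA, 18.1 for CAA and 12.9 for CAG, in the same order.

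**Figure D3:**
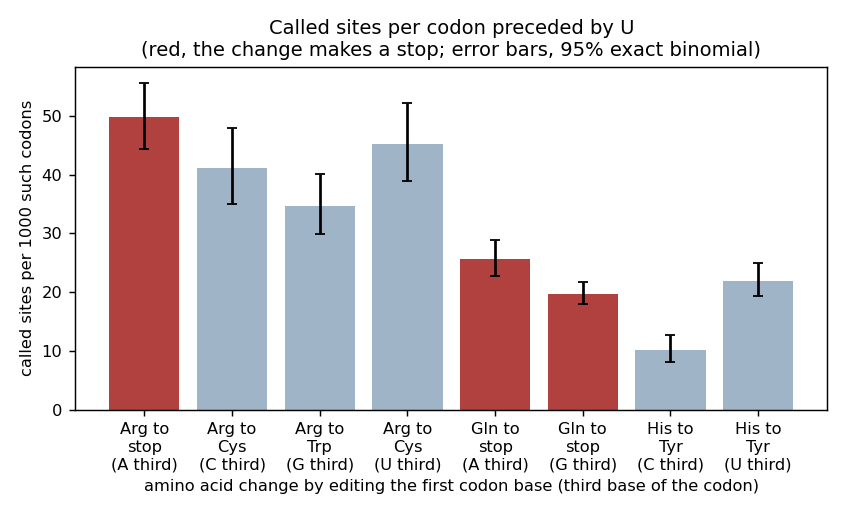
Called hA3A-BE3-only sites per 1000 codons preceded by U (vertical axis) for arginine, glutamine and histidine codons edited at their first base (horizontal axis, amino acid change and last base of the codon). Red bars make a stop, blue bars do not, and error bars are exact 95% binomial intervals. The arginine stop codon reaches 49.8 and the glutamine ones 25.7 and 19.8.

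Levels followed the codon too. The median level of CGA members was 10.3%, 10.6% and 9.38% in replicates 1 to 3, and that of CAA and CAG members 8.76%, 8.11% and 7.69%. The difference of 1.93 percentage points ± 0.520 (SD, n = 3) was positive in 3 of 3 libraries (two-sided exact sign-flip permutation p = 0.25, Benjamini-Hochberg adjusted p = 0.625 over 10 comparisons). With 3 libraries this test cannot give a p under 0.25, so none of the 10 comparisons of this kind could pass. Median covering reads were alike, 50.5, 49 and 59 against 47.5, 48.5 and 56.

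Against other changes at the same base of a like codon, the level of arginine stops had no steady direction. Glutamine stops were higher than histidine sites in no library. Only sites of at least 5.02% edited are listed, so sites under that limit do not enter any of these medians. CGA members averaged a median of 10.1% ± 0.661, and CGC, CGG and CGU sites 10.3% ± 1.33 (SD, n = 3), a difference of -0.16 points ± 1.08 with replicate 1 higher and replicates 2 and 3 lower (exact sign-flip permutation p = 0.75, adjusted p = 0.75). Its direction turned under 6 of 10 alternatives. CAA and CAG members averaged 8.19% ± 0.538, and CAC and CAU sites 8.59% ± 0.826 (SD, n = 3), lower in 2 libraries and equal in replicate 3 (difference -0.40 points ± 0.352, exact sign-flip permutation p = 0.5, adjusted p = 0.75). The direction of this difference turned under 2 of 10 alternatives. All stop sites together averaged 8.67% ± 0.508, synonymous sites 9.59% ± 0.639 and missense sites 8.94% ± 0.680 (SD, n = 3). The difference from synonymous sites was negative in 3 of 3 libraries, at -0.65, -1.32 and -0.78 points (exact sign-flip permutation p = 0.25, adjusted p = 0.625), and that from missense sites in 2 of 3 (exact sign-flip permutation p = 0.75, adjusted p = 0.75).

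The base before the edited C was U at 1024 of the 1073 members (95.4%) and at 79 of 79 members called in all 3 libraries. The share per library, 96.0% ± 0.779 (SD, n = 3), was close to the 95.8% ± 0.424 of the other coding sites (difference 0.12 points, exact sign-flip permutation p = 0.75, adjusted p = 0.75). At the next base upstream A stood at 51.4% of members and U at 29.5%, and at the base before that C stood at 37.5% and U at 30.6%. Other sites at the first codon position had C there at 40.7%, and all other coding sites at 54%. In the 79 members of all 3 libraries that C stood at 62%.

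Since the edited base opens the codon, the 3 letters before it are the preceding codon. The histidine codon CAU preceded 182 members (17%), 23 of the 79 in all 3 libraries (29.1%) and 9 of the highest 15. It preceded 18.9% of other sites at the first codon position. The letters CAU also stood before 33.5% of all other coding sites. Those include other codon positions, where these letters are not a histidine codon of the reading frame. A CGA codon after CAU was called at 155 per 1000, a CAA codon at 81.3 and a CAG codon at 56.1. For CGA that compares with 49.8 per 1000 after any codon ending in U. Arginine codons that make no stop were called after CAU at 182 per 1000 for CGU, 159 for CGC and 119 for CGG, on both sides of the rate of CGA. Members after CAU had median levels of 12%, 10.8% and 9.88% in replicates 1 to 3, and those after other triplets 8.89%, 8.33% and 7.89%, higher after CAU in each library. Median covering reads were lower after CAU, at 39, 44 and 50 against 51, 49 and 57, and their part in the difference was not tested.

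Codons that could form a small hairpin, with the edited C as the last base of its loop, held more calls than others. A stem of at least 3 pairs (Watson-Crick or G-U) closing a loop of 3 or 4 bases was found at 319 members (29.7%) and at 42 of the 79 in all 3 libraries (53.2%). Only 8.97% of the CGA, CAA and CAG codons after U in these genes had one. Such codons were called at 85.4 per 1000, and those without at 20.3. These rates pool CGA, CAA and CAG and were not matched by codon. A pairing of letters is a description of the sequence, and no structure was measured.

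By library the share with such a stem was 37.1%, 34.4% and 32.8% among members and 35%, 32.1% and 30.8% among other coding sites. Members were higher in 3 of 3 libraries, by 2.09 points ± 0.145 (SD, n = 3; exact sign-flip permutation p = 0.25, adjusted p = 0.625). Over distinct sites, however, other sites at the first codon position had the stem at 30.6%, against 29.7% of members. The difference from other coding sites was 4.68 points with at least 50 covering reads and 4.74 with Watson-Crick pairs alone. Members with the stem had median levels of 10%, 10.3% and 9.35%, and those without 8.82%, 8.16% and 7.69%.

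Among the sequences printed above, MCM6 R387X could pair 6 bases on each side of a 3-base loop and ATP5F1B Q332X 7. DHX38 R12X could pair 6 around a 4-base loop, NCAPD2 R537X 5, and DDOST R198X 4. A stem was no condition of a high level: ZNF14 R407X and TPX2 Q177X had at most 1 pair, and ZNF554 Q264X 0. Of the highest 15 members 6 had a stem of 3 or more pairs. NCAPD2, a condensin subunit that compacts chromosomes, also had the tightest levels of all members in 3 libraries, at 15.8%, 16.1% and 16.1% of 221, 193 and 280 reads.

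Stops were spread along the whole protein. The share of the protein before the stop ran from 0.520% to 99.9%, with a median of 48.3%, and from 0.888% to 99.2% with a median of 47.0% among the 79. The earliest stops called in all 3 libraries were PARP1 R10X, in an enzyme that marks DNA breaks, DHX38 R12X, XRN1 R91X, in the exonuclease that degrades decapped mRNA, and RNF167 R27X, in a ubiquitin ligase. The latest were SIN3A Q1197X, in a corepressor scaffold, KIDINS220 Q1710X, NR1D2 R562X, in a nuclear receptor of the circadian clock, and UROD R365X, in a heme synthesis enzyme of 367 residues. PARP1 R10X lay at 6.57%, 8.27% and 15.8% of 133 to 228 reads, and UROD R365X at 13.4%, 14.1% and 9.76% of 92 to 149 reads. The order of replicates differed between these 2 sites.

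**Figure D4:**
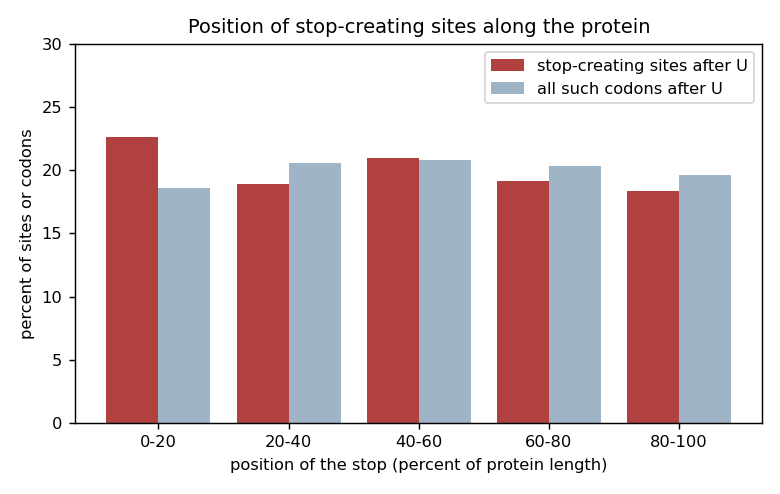
Share (vertical axis, percent) of stop-creating sites after U, in red, and of all CGA, CAA and CAG codons after U in the same genes, in blue, by position of the stop along the protein (horizontal axis, percent of its length). The opening 20% of the protein holds 22.6% of sites and 18.6% of codons, and the other bins differ by less than 2 points.

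In 5 equal bins of the protein, members after U numbered 227, 190, 210, 192 and 184 from the start to the end. Per 1000 available codons this was 31.7 in the opening bin and 24.1 to 26.2 in the others.

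Most stops lay where nonsense-mediated decay is commonly said to act. With the usual rule, a stop at least 50 bases before the last exon junction, 889 members (82.9%) lay upstream and 184 did not, of which 144 were in the last exon and 4 in transcripts of a single exon. Other sites at the first codon position lay upstream at 84.5% and all other coding sites at 84.8%. Of the 79 members in all 3 libraries 63 (79.7%) lay upstream, and of the highest 15, 10 did. The 5 of the highest 15 that did not were LMAN2L R287X, ZNF14 R407X, ZDBF2 R1722X, FBXL12 R64X and ZNF554 Q264X.

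Upstream stops had lower median levels than later ones in every hA3A-BE3 library. They were at 8.85%, 8.33% and 8.06% in replicates 1 to 3, and later stops at 12.8%, 10.3% and 8.70%, a difference of -2.21 points ± 1.68 (SD, n = 3; two-sided exact sign-flip permutation p = 0.25, adjusted p = 0.625). It rested partly on replicate 1, with 36 later stops, since without that library it was -1.32 points. Covering reads moved with it: the medians were 50, 49 and 56 at upstream stops and 37.5, 41 and 55 at later ones, and with at least 50 covering reads the difference was -0.29 points, and among sites called in all 3 libraries -3.97. The part of coverage in the difference was not tested otherwise.

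Other sites at the first codon position, which leave the protein's length unchanged, showed a smaller gap of the same direction in replicates 1 and 2 and none in replicate 3. They were at 8.84%, 9.68% and 8.33% upstream and 9.68%, 11.1% and 8.33% later. Upstream, stops lay below these sites by 0.54 points ± 0.713 (SD, n = 3), being lower in 2 of 3 libraries (exact sign-flip permutation p = 0.5, adjusted p = 0.75). Among sites called in all 3 libraries they lay above them, by 1.17 points (exact sign-flip permutation p = 0.25). Later in the transcript, stops lay above the other sites by 0.92 points ± 2.02 (SD, n = 3), in replicates 1 and 3 but not in replicate 2 (exact sign-flip permutation p = 0.75, adjusted p = 0.75), and without replicate 1 the difference was -0.20.

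**Figure D5:**
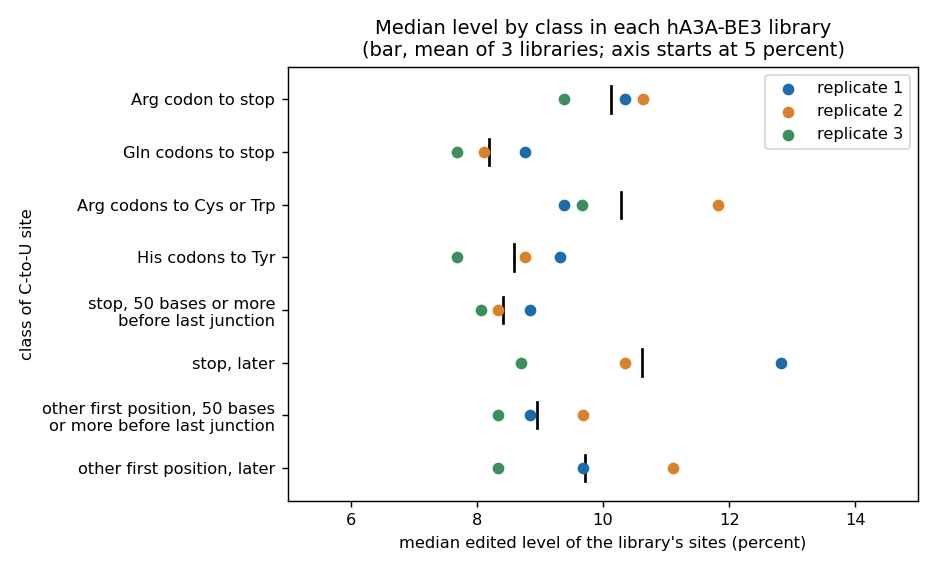
Median edited level (horizontal axis, percent, starting at 5) of classes of C-to-U sites (vertical axis) in each hA3A-BE3 library. Points are replicates and bars the mean of 3 libraries. Arginine codons, stop or not, average near 10%, glutamine codons 8.19% and histidine codons 8.59%, and later stops spread from 8.70% to 12.8%.

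Most genes held a single stop. Of the 890 genes 753 had 1 member, 106 had 2, 22 had 3, and 9 had 4 to 6. Among the 3658 genes with a hA3A-BE3-only coding C-to-U site, 24.3% had a member. No gene had 2 members called in all 3 libraries.

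HUWE1 and USP24 held the most members. HUWE1, a ubiquitin ligase of 4374 residues, held 6, from Q796X to R4045X, of which R1901X was called in all 3 libraries at 10.7%, 11.5% and 20.5%. USP24, a deubiquitinase, also held 6, led by Q1463X, listed in replicate 1 alone at 13% (exact 95% binomial interval 2.78 to 33.6) of 23 reads. RC3H2, an RNA-binding ubiquitin ligase, and CEP350, a centrosomal protein, held 5 each. The highest mean level of a site, over the libraries that listed it, was 11.3% in RC3H2 and 9.68% in CEP350. XRN1, CPLANE1, a gene of cilium formation, and the autophagy receptor OPTN held 4 each, and of these 3 genes only XRN1 had a member, R91X, in all 3 libraries.

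Some genes of the decay and termination machinery held a stop. Of 26 such genes listed, 14 had a coding site and 7 of these (50%) a stop, beside 24.3% of all genes with a coding site. That 24.3% is the share to set beside each list below, with gene length and expression not matched. The 7 genes held 10 stops in all, 4 of them in XRN1, with a median level of 9.59%. Over all 1073 members the median was 8.11%. XRN1 R91X was at 10%, 5.26% and 9.64% in replicates 1 to 3. It was lowest in replicate 2. UPF2, a core factor of nonsense-mediated decay, and DCP2, the decapping enzyme, were among the other genes with a stop.

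Tumour suppressors held 18 stops, in 14 of 40 genes with a coding site, with a median level of 7.86%. PBRM1 R146X, in a subunit of the PBAF remodeller, was at 16%, 23.2% and 26.4%, lowest in replicate 1. SETD2 R1492X, in the methyltransferase of histone H3 lysine 36, was at 6.82%, 17.1% and 18.5%, again lowest in replicate 1. SDHB is also on this list and was described above.

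DNA repair genes held 19 stops, in 16 of 50 genes with a coding site, at a median of 6.52%. The helicase RECQL5 carried Q63X at 16% and 10.2% in replicates 2 and 3. PARP1 R10X, called in all 3 libraries, is also on this list and was described above.

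Replication and cell cycle genes held 15 stops, in 14 of 46 genes, at a median of 9.81%, and 5 of the stops were in all 3 libraries. Over all 1073 members the share in all 3 was 7.36%, and coverage was not matched. Beside NCAPD2, CDC6, the loader of the replicative helicase, carried Q460X at 5.67%, 20.6% and 17.4% of 218 to 305 reads. Subunits of the helicase itself carried MCM6 R387X at 11.9%, 12.9% and 15.0%, and, named to complete the count of 5, MCM7 R191X at a mean of 9.81% ± 3.71 and MCM4 R395X at 8.83% ± 2.85 (SD, n = 3). CDC6 was lowest in replicate 1 by a wide gap, while the 3 libraries lay close together at MCM6, which had 170 to 226 reads.

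Mitochondrial respiration and the citric acid cycle held 8 stops, in 8 of 28 genes, at a median of 8.10%. NDUFS1, a subunit of complex I, carried R62X at 11.2%, 16.7% and 25%. ATP5F1B, the catalytic subunit of ATP synthase, carried Q332X at 6.71%, 13.2% and 14.7% of 515 to 734 reads, among the best covered members. Replicate 1 was lowest at both sites.

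Splicing factors held 8 stops, in 8 of 29 genes (median 9.20%), led by DHX38, with RBM5 R680X in 2 libraries. Translation factors held 3, in 3 of 16 genes (8.23%): EIF3B Q354X at 6.07%, 11.4% and 10.1%, EIF3L Q89X at 5.41%, 8.18% and 11.1%, and EIF4G2 Q325X in replicate 3 alone. Proteasome and chaperone genes held 16, in 12 of 38 genes (7.26%), among them PSMA4 Q149X at 8.88%, 14.4% and 10.3%, PSMB5 R217X at 6.58%, 6.19% and 9.38%, and the co-chaperone BAG3 R309X in 2 libraries. PSMA4 and PSMB5 are subunits of the proteasome core.

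Nuclear pore and export genes held 9 stops, in 8 of 27 genes (median 7.41%), among them the scaffold nucleoporin NUP205 with Q485X in all 3 libraries and the exportin XPO1 with Q15X at 13.7% and 14.5% in replicates 2 and 3. Cytoskeleton and motor genes held 18, in 12 of 42 genes (6.32%), led by MACF1, with KIF20A R851X and DYNC1H1 Q2549X in 2 libraries each. Polycomb and SWI/SNF genes held 5, in 5 of 16 genes (9.09%): PBRM1, the remodeller subunits SMARCA2 Q1152X and SMARCC2 R466X, ARID1A and ARID2. Aminoacyl-tRNA synthetases held 4, in 4 of 16 genes (5.97%), the best of them LARS2 Q738X in 2 libraries. Lipid and sterol synthesis held 1, SREBF2 Q369X, in 14 genes with a coding site. Blood cell markers had no coding site.

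Across the lists with 10 or more such genes, the share of genes with a coding site that also had a stop ran from 7.14% for lipid and sterol synthesis to 50% for decay and termination, beside 24.3% over all genes. Gene length and expression differ between lists and were not matched, and no list was tested.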

How the data were processed

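The 14 libraries were stranded total RNA of 293FT cells without ribosomal and globin RNA, per the labels' protocols. Per the submitters' processing notes the builds were GRCh38 and hg38 and the tools include BWA 0.7.17. For the site caller and its limits, nothing is given in the sources used here. From each library the authors deposited 1 list of called sites. Its columns of whole numbers are, from their values, deposited read counts per site, further columns as deposited fractions of covering reads with each base, and 1 deposited signal column as depth per Gb of mapped bases, inferred from its constant ratio to a count column. Lists held 1102 to 9278 sites with at least 2 mutated reads and at least 5.02% edited.

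The strand of each of 46372 calls followed from the fraction columns. Coding effects came from GENCODE 29 basic transcripts (GRCh38), and 0 coding C-to-U sites had another reference letter. Of 1073 members 1062 made a stop in every basic coding transcript at the site, and 17 were coding in more than 1 gene. Sequences come from the GENCODE transcripts, and none is printed from chromosome 8. Levels are the percent of covering reads with U. Classes were compared within the 3 hA3A-BE3 libraries by per-library medians or shares, with two-sided exact sign-flip permutation tests over libraries (8 sign patterns, smallest p 0.25) and Benjamini-Hochberg adjustment over 10 comparisons. Scripts (Python 3.11.15, NumPy 2.4.6, SciPy 1.17.1) were tested on simulated data. Named members follow a rule: the 15 highest mean levels in all 3 libraries at most 1 per gene, the 8 genes with most members, up to 3 per list of 15 lists, the 4 earliest and 4 latest stops in all 3 libraries, both reported APOBEC3A targets, members of all 3 libraries without U before the C (there were 0), the 3 lowest levels and up to 10 sites left out because another library holds them. Other names complete a count or were singled out after their values were seen. Some members and 1 sequence chosen this way are not reported here. The members and lists were chosen with earlier results of these data known. Alternatives were limits on covering reads (20, 50), edited fraction (10%) and mutated reads (5), each hA3A-BE3 library left out, the transcript, the summary of levels, the junction distance, the stem and the genes.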

Additional observations from a re-analysis of the deposited data

How the results depend on the processing

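The number of stop-creating sites was 580 where 50 or more reads covered the site, 403 where the level was 10% or more, and 462 where 5 or more reads were mutated; with a hA3A-BE3 library left out it ran from 644 to 968, the lowest without replicate 3. Sites in all hA3A-BE3 libraries numbered 41, 33 and 51 under these limits, and 89 to 181 with a library left out, where a site needs 2 calls. The stop share was 13.1% at levels of 10% or more. Calls per 1000 codons in the genes of the other libraries were 30.6, 18.1 and 12.9 for CGA, CAA and CAG. The sign-flip test cannot pass with 3 libraries or fewer, so its p says nothing about stability here.

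These differences changed direction, and the cause was not tested. Stop minus missense became 0.76 points among sites of all 3 libraries, and ran from -0.54 to 0.0211 with a library left out. CGA stops minus other arginine codons became 0.0307 with 20 covering reads, 0.10 with 50, 0.16 with 5 mutated reads, 1.18 among sites of all 3 libraries and 0.15 as a pooled fraction, and ran from -0.73 to 0.34 with a library left out. CAA and CAG stops minus histidine codons became 0.26 at levels of 10% or more and 1.02 among sites of all 3 libraries. Stop minus other first-position sites became 1.17 upstream among sites of all 3 libraries, and downstream -0.0447 with 50 covering reads and -0.48 at levels of 10% or more, with -0.20 to 1.76 when a library was left out. The share after U differed by -0.0660 at levels of 10% or more, and by -0.0714 to 0.32 with a library left out. Stop minus synonymous, CGA minus CAA and CAG stops, upstream minus later stops and the share with a stem kept their direction under all their alternatives, with ranges of -2.69 to -0.49, 0.78 to 3.03, -3.97 to -0.29 and 2.01 to 4.74 points.

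Each comparison of classes of sites is already paired by library. Between groups of libraries, no paired analysis was possible because no test compares groups that share replicate numbers. Depth limits the lists: 28.6% to 34.4% of member calls rest on 3 mutated reads.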

Other observations

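Stop codons made by changes other than C-to-U numbered 4, 3 and 7 in hA3A-BE3 replicates 1 to 3 and 0 to 3 in the 11 other libraries, among 95 to 172 coding sites of such changes per library.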
